A study of Mus musculus with 6 samples.

Results

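The genes described here are 10 genes of limb muscle precursors: Pax3, Pax7, Lbx1, Met, Myf5, Myf6, Myod1, Myog, Mef2c and Acta1. They were taken by name from a list, out of 21887 protein-coding genes, and a chromatin immunoprecipitation peak was assigned to a gene when its summit lay inside the gene or within 50 kb of either end. By this rule 125 distinct peaks from 4 lists were assigned to the 10 genes. ChIP-seq for pSmad1/5 and for Smad4 had been done on limb and on molar tooth germ of CD1 wild-type mouse embryos at E13.5, a stage counted in days of embryonic development, with 1 library for each tissue and antibody. The limb groups were limb pSmad1/5 and limb Smad4, and the molar groups were molar pSmad1/5 and molar Smad4. The tissues were fixed with 1% formaldehyde for 15 minutes with no sorting of cells named, and a limb holds connective tissue, cartilage, vessel, nerve and epithelial cells beside muscle precursors. The number of embryos per library was not given in the sources used here. No expression was measured, so the presence of muscle precursors in either tissue could not be checked from these files. The pSmad1/5 lists held 23389 peaks in limb and 35476 in molar, the Smad4 lists 29756 in limb and 34561 in molar, and the read depth behind them is unknown. With 1 library per group no difference has a replicate check, and no p-value was computed.

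Limb muscle comes from cells that leave the somites and migrate into the limb bud. Pax3 and Pax7 keep these cells as precursors, Lbx1 and the receptor Met act in their migration, and the basic helix-loop-helix factors Myf5, Myf6, Myod1 and Myog commit them to muscle and start differentiation. Mef2c acts with these factors on muscle genes, and Acta1 encodes the actin of the skeletal muscle contractile apparatus. Bone morphogenetic proteins (BMPs) signal through phosphorylated Smad1 and Smad5 (pSmad1/5), which join Smad4, a partner shared with the TGF-beta branch. In chick limbs BMP signals are known to affect how many muscle precursors keep dividing, and the Id proteins, which are BMP targets, bind partners of the Myod1 family.

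Promoter sequences are shown for 4 of the 6 genes that have an entry in the RefSeq table (GRCm38.p6), namely the 3 with the closest summits to a tabled start site (141 bp at Myf5, 156 bp at Pax7 and 419 bp at Met) and, for contrast, Myog, whose nearest summit lay 2046 bp away. Each run covers 250 bases before the start site and 50 after it, 5′ to 3′ on the gene's strand. Capitals mark CAGAC, the core of the Smad binding element, read on either strand (GTCTG on the other), and GGCGCC, a GC-rich motif bound by BMP Smads.
Myf5, chr10:107486085-107486384, minus strand: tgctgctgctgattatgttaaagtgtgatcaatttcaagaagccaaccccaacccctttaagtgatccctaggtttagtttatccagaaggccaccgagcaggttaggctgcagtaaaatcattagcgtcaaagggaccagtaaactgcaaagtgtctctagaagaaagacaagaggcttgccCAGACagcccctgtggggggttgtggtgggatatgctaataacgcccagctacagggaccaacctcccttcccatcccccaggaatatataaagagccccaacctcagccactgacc
Pax7, chr4:139832919-139833218, minus strand: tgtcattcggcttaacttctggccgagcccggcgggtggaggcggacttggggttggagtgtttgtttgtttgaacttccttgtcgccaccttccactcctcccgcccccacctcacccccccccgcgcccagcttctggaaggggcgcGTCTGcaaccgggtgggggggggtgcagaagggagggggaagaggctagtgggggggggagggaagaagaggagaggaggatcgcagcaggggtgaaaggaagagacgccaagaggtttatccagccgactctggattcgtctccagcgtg
Met, chr6:17463707-17464006, plus strand: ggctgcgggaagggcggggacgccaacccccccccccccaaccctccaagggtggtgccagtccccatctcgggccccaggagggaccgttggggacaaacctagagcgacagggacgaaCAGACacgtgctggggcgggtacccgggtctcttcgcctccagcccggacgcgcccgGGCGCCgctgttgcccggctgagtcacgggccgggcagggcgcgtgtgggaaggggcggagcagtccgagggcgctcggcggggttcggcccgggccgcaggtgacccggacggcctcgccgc
Myog, chr1:134289754-134290053, plus strand: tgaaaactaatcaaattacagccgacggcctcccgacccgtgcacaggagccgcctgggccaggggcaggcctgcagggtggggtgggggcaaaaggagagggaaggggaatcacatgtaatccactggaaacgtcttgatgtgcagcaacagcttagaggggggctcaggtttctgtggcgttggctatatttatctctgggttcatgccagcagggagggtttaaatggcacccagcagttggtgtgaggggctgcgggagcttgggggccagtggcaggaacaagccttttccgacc
CAGAC occurred once in Myf5, once in Pax7, once in Met and not at all in Myog, and it was present in 49.6% of the 32851 tabled promoters. It also occurred once in the Acta1 promoter, whose nearest summit lay farther away than that of Myog, at 3252 bp. Each tabled Mef2c promoter held it once as well, with nearest summits 1844, 21466 and 26444 bp away. Presence of CAGAC thus did not follow nearness of a summit among these genes. GGCGCC occurred once among the 4, in Met, and in 11.9% of tabled promoters. CANNTG, the E-box bound by the Myod1 family, was counted separately and may share bases with the other motifs. It occurred 2 times in Met, 2 times in Myog and in neither Myf5 nor Pax7, against 72.3% of tabled promoters with a match. No peak of any of the 4 lists lay within these 4 windows, nor within the tabled windows of Acta1 and Mef2c. The motifs are therefore a description of sequence next to the peaks and not of sequence under them.

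Across the 10 genes, a pSmad1/5 peak was present at 9 genes in limb and at 10 in molar, and a Smad4 peak at 7 genes in limb and at 6 in molar. Of all protein-coding genes, 68.0% had a limb pSmad1/5 peak by the same rule, 74.9% a molar pSmad1/5 peak, 71.2% a limb Smad4 peak and 68.0% a molar Smad4 peak. The Smad4 counts were thus close to the share among all genes. The pSmad1/5 counts were above it by 2 or 3 genes, of which Myf5 and Myf6 share a single peak in each tissue. In both tissues a pSmad1/5 peak was present at 9 genes (60.1% of all protein-coding genes) and a Smad4 peak at 5 (56.0%). In 4 of the 10 genes (Pax3, Pax7, Myod1 and Myog) all 4 lists had a peak, against 44.4% of protein-coding genes. In unsorted tissue, fewer cells with a bound site and less binding per cell cannot be told apart.

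**Figure D1:**
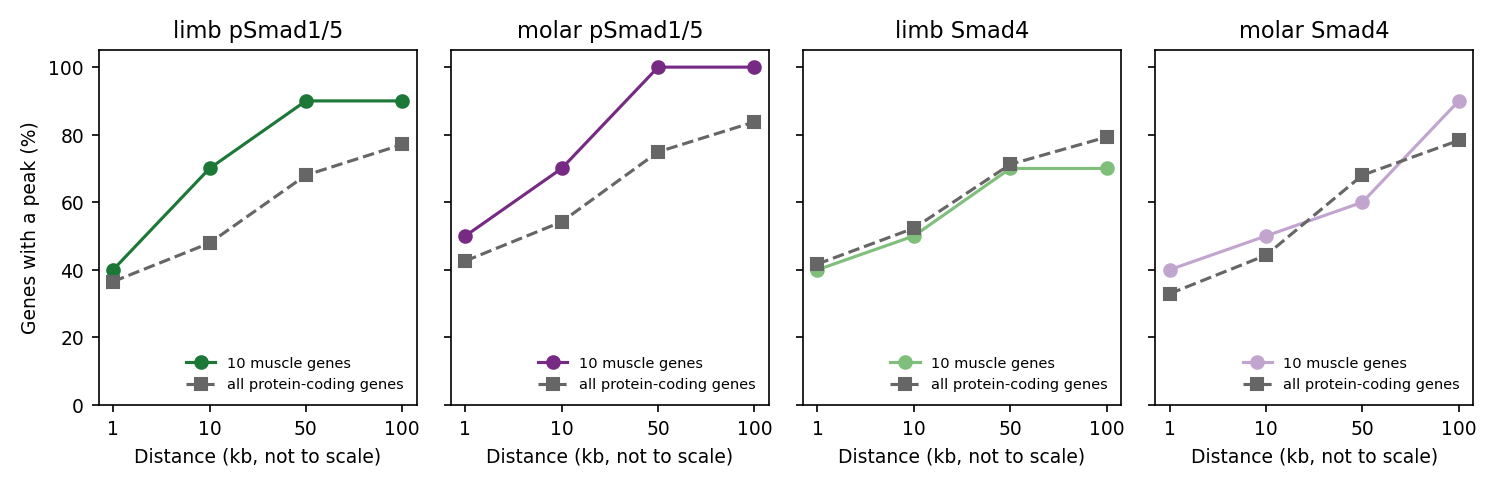
Share of genes with a peak (vertical axis, percent) by the distance allowed between a summit and the nearer gene end (horizontal axis, kb; summits inside the gene always count), for the 10 muscle genes (coloured circles) and all protein-coding genes (grey squares). At 10 kb the muscle genes stand at 70% in both pSmad1/5 lists, against 47.9% of all genes in limb and 54.2% in molar, while the Smad4 lines run close together in both tissues. Myf5 and Myf6 count there through the same pSmad1/5 peak in each tissue.

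At 10 kb the pSmad1/5 counts again stood above the share among all genes, and at 1 kb they were less than 1 gene above it. Within 10 kb, 7 of the 10 genes had a limb pSmad1/5 peak (47.9% of all protein-coding genes) and 7 a molar pSmad1/5 peak (54.2%). In both tissues Myf6 is among these 7 only through the peak it shares with Myf5. For Smad4 there were 5 in limb (52.3%) and 5 in molar (44.3%). Within 1 kb or inside the gene, pSmad1/5 counts were 4 in limb (36.5%) and 5 in molar (42.6%), and Smad4 counts were 4 in limb (41.7%) and 4 in molar (32.9%). Within 100 kb, 9 genes had a limb (77.1%) and 10 a molar (83.8%) pSmad1/5 peak, and 7 had a limb (79.3%) and 9 a molar (78.3%) Smad4 peak.

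In number, pSmad1/5 had 22 limb and 41 molar peaks at the 10 genes, and Smad4 had 31 in each tissue. At the average density of the chromosomes concerned, the same windows would hold 10.5 pSmad1/5 peaks in limb and 22.3 in molar, and for Smad4 15 in limb and 21.6 in molar. The ratio of observed to average density was 2.09 for limb pSmad1/5 (exact 95% Poisson interval 1.31 to 3.17) and 1.84 for molar pSmad1/5 (1.32 to 2.49). It was 2.06 for limb Smad4 (1.4 to 2.93) and 1.44 for molar Smad4 (0.976 to 2.04). Around all protein-coding genes the ratio was 1.83 in limb and 1.62 in molar for pSmad1/5, and 1.92 in limb and 1.29 in molar for Smad4. Every one of these all-gene ratios lay inside the interval of the 10 genes. The intervals are wide and pool unlike genes, with limb pSmad1/5 ratios from 0 at Mef2c to 7.49 at Myog. They therefore cannot show that the muscle genes carried the same peak density as gene surroundings in general. Only the counting of peaks enters these intervals, and variation between embryos does not.

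The molar surplus of pSmad1/5 peaks was counted in lists that start at different scores on some chromosomes. Whether the surplus came from this was not tested. At Pax7, where both pSmad1/5 lists start at 3, there were 5 limb and 10 molar peaks. On chromosomes 1, 6 and 13, which carry Pax3, Myog, Met and Mef2c, limb pSmad1/5 peaks are listed down to a score of 3 and molar ones down to 2. The score is the authors' own enrichment value per peak. Of the 41 molar pSmad1/5 peaks, 17 scored under 3. These 17 could lie only at these 4 genes, since the molar list starts at 3 on the other chromosomes concerned. For Smad4 the order is turned on chromosomes 8 and 19, which carry Acta1 and Lbx1, where the limb list starts at 3 and the molar list at 4. Chromosome 8 held 1711 limb and 440 molar Smad4 peaks, and chromosome 19 held 941 limb and 220 molar ones. Counts with a common lowest score per chromosome stand beside the genes concerned.

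**Figure D2:**
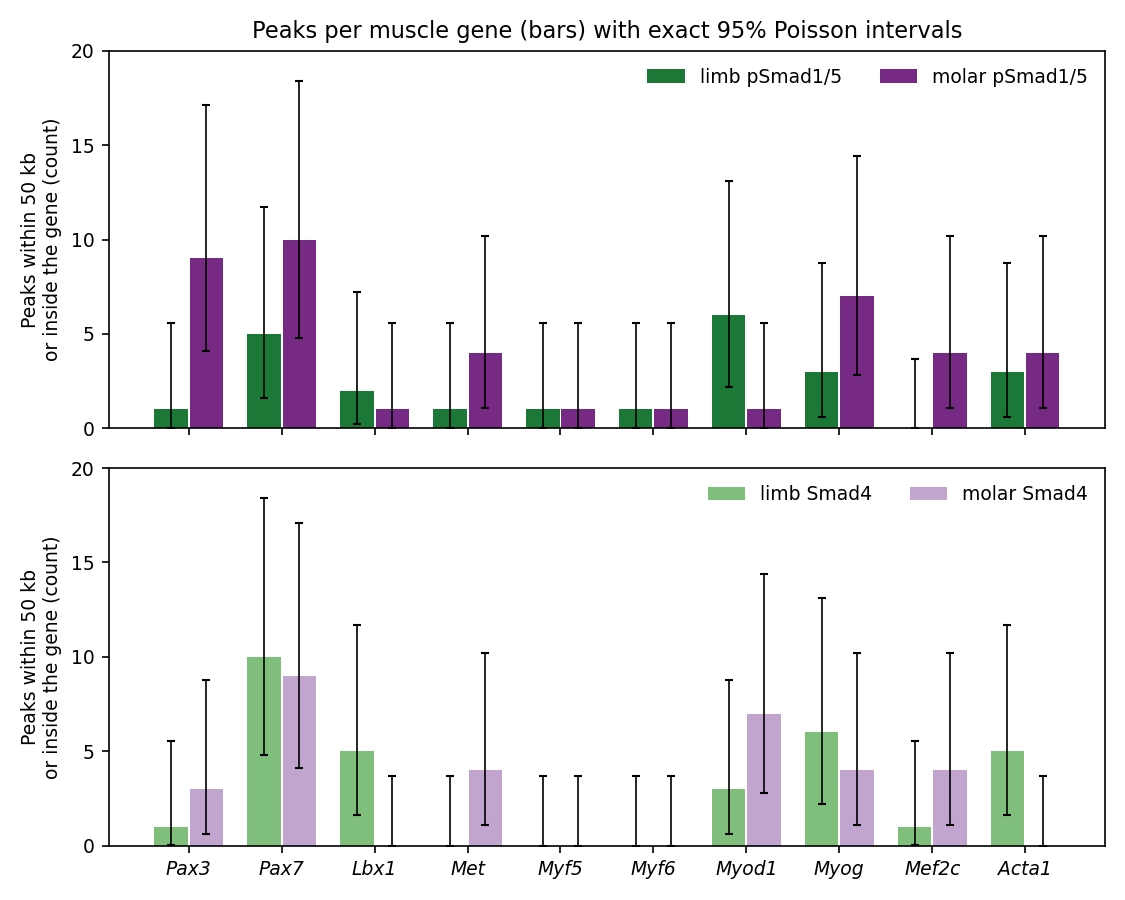
Number of peaks (vertical axis) per gene (horizontal axis) for pSmad1/5 (upper panel) and Smad4 (lower panel), limb bar left of molar bar; whiskers are exact 95% Poisson intervals of each count. Pax7 has the most peaks (5 limb and 10 molar for pSmad1/5, 10 and 9 for Smad4), and the limb and molar intervals overlap at every gene.

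Gene by gene, pSmad1/5 peaks were more numerous in limb at 2 genes, more numerous in molar at 6 and equal at 2. Among all protein-coding genes 30.0% had more limb and 43.3% more molar pSmad1/5 peaks. For Smad4, limb had more at 4 genes, molar at 4, and 2 had none in either tissue, while 42.8% of all genes had more limb and 32.1% more molar Smad4 peaks. The exact Poisson intervals of the limb and molar counts overlapped for all 10 genes with both antibodies, and so did those of the density ratios. The tissue differences at single genes below are therefore given as counts only. A pSmad1/5 peak in limb and not in molar was found at 0 genes (7.92% of all genes), and the opposite at 1 gene, Mef2c (14.8%). At 4 genes (Pax7, Myod1, Myog and Acta1) the difference had opposite signs for the antibodies, against 24.9% of all genes. A Smad4 peak in limb and not in molar was found at 2 genes, Lbx1 and Acta1 (15.2%), and the opposite at 1 gene, Met (12.0%).

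**Figure D3:**
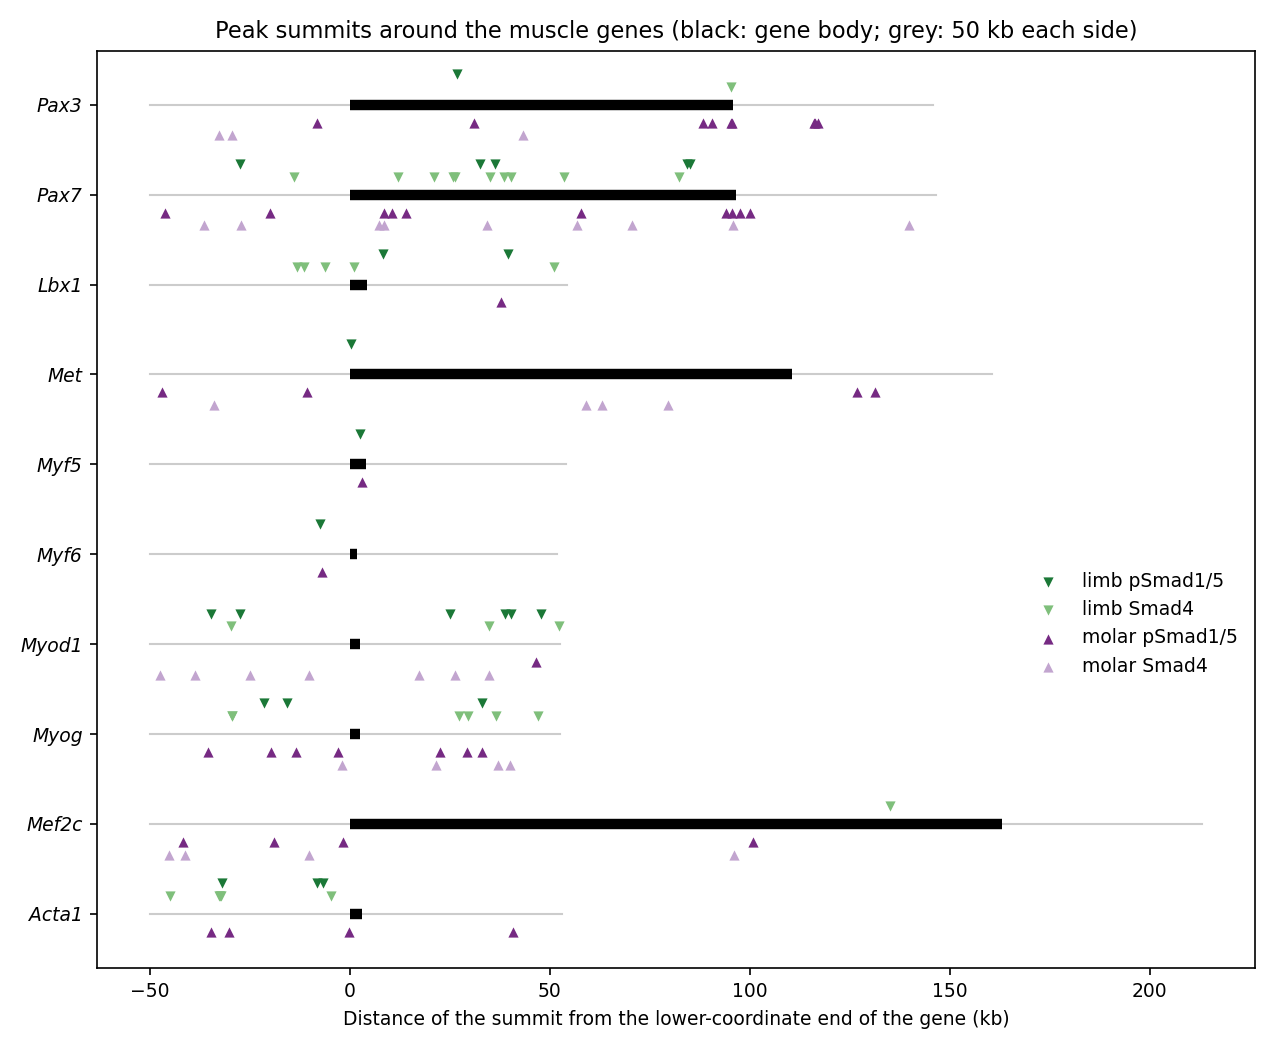
Summits of the assigned peaks (triangles) by distance from the lower-coordinate end of each gene (horizontal axis, kb); genes run down the page, black bars are gene bodies and grey lines the 50 kb on each side. Limb summits point down above each line and molar summits point up below it. Myod1, Myog and Acta1 have no summit inside the gene in any list, whereas Pax7 holds most of its summits inside.

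Pax7 carried the largest number of peaks among the 10 genes, 34 over the 4 lists. It spans 96.5 kb on chromosome 4 (139737059 to 139833530), and no other protein-coding gene lies in its window. For pSmad1/5 there were 5 peaks in limb and 10 in molar, and for Smad4 10 in limb and 9 in molar. Of the Smad4 peaks, 9 limb and 6 molar lay inside the gene, and of the pSmad1/5 peaks 4 limb and 6 molar. At least as many limb pSmad1/5 peaks were present at 18.9% of all protein-coding genes, at least as many molar pSmad1/5 peaks at 5.02%, limb Smad4 peaks at 8.26% and molar Smad4 peaks at 3.90%, although long genes have larger windows. Per chromosome average the density was 4.43 times for limb pSmad1/5 (1.44 to 10.3) and 5.76 times for molar pSmad1/5 (2.76 to 10.6). For Smad4 it was 3.43 times in limb (1.64 to 6.3) and 2.36 times in molar (1.08 to 4.49). Around all protein-coding genes the ratios were 1.83 (limb) and 1.62 (molar) for pSmad1/5, and 1.92 and 1.29 for Smad4. Each lay inside the Pax7 interval except that of molar pSmad1/5, which lay below it. The 4 lists have the same lowest score, 3, on this chromosome, but differ in length there, with 899 limb and 1381 molar pSmad1/5 peaks. With equal numbers of top peaks per chromosome Pax7 had 5 limb and 6 molar pSmad1/5 peaks, and the Smad4 counts stayed at 10 in limb and 9 in molar.

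Within Pax7 no limb peak overlapped a molar peak, and such overlap was rare in the whole lists. There 1.70% of limb pSmad1/5 peaks overlapped a molar pSmad1/5 peak. Of limb Smad4 peaks, 0.518% overlapped a molar Smad4 peak and 2.29% a molar pSmad1/5 peak. The limb summits nearest to the tabled start site lay 10835 bp downstream of it for pSmad1/5 and 13712 bp downstream for Smad4. Molar summits were closer, 414 bp downstream for pSmad1/5 (score 4.0) and 156 bp downstream for Smad4 (score 3.48), next to the promoter shown above. A further molar pSmad1/5 summit (score 3.0) lay 1540 bp upstream. The highest-scoring limb peaks were a Smad4 peak at 139771995 to 139772109 (score 5.07) and a pSmad1/5 peak at 139773194 to 139773242 (score 4.52), 35010 and 36182 bp from the lower-coordinate end. These neighbouring limb peaks did not overlap. A molar site had both antibodies, with a pSmad1/5 peak at 139745633 to 139745681 (score 3.0) and a Smad4 peak at 139745564 to 139745642 (score 4.71) overlapping by 10 bp.

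Of all protein-coding genes that share no window with Pax7, the one with the most similar counts in the 4 libraries was Rin3, a guanine nucleotide exchange factor gene on chromosome 12 with a length of 108 kb. For pSmad1/5 it had 5 peaks in limb and 10 in molar, and for Smad4 10 in limb and 11 in molar, a summed difference of 2 from Pax7. The likeness rests on 4 libraries.

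Pax3, the other paired-box regulator of the precursors, had 8 fewer limb than molar pSmad1/5 peaks within 50 kb. It spans 95.9 kb on chromosome 1 (78101267 to 78197136). Limb pSmad1/5 had 1 peak, inside the gene (score 3.05), and molar pSmad1/5 had 9, with scores of 2.03 to 4.57. Against their chromosome averages these counts were 1.31 times in limb (0.0331 to 7.28) and 1.83 times in molar (0.836 to 3.47), and these intervals overlap. With a common lowest score of 3 there were 1 limb and 4 molar peaks, a smaller difference than at Pax7 (5 and 10) or Myod1 (6 and 1) counted the same way. Of equal numbers of top peaks per chromosome, 1 limb and 3 molar peaks lay at Pax3. In the full list, 3 of the 9 molar peaks, the highest-scoring included, lay inside the predicted gene Gm2102 about 20 kb away. Smad4 had 1 limb and 3 molar peaks.

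A peak group lay at the higher-coordinate end of Pax3. There the limb Smad4 peak (78196509 to 78196561, score 4.85) overlapped a molar pSmad1/5 peak (78196452 to 78196516, score 2.43) by 8 bp, 584 and 625 bp inside the gene. A second molar pSmad1/5 summit (score 2.74) lay 382 bp inside. No limb pSmad1/5 and no molar Smad4 summit lay within 1 kb of that end.

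The migration genes Lbx1 and Met went in opposite directions for Smad4. Lbx1, a homeobox gene of 4.16 kb on chromosome 19 (45232684 to 45236841), stands alone in its window. Smad4 had 5 peaks in limb and none in molar, and pSmad1/5 had 2 in limb and 1 in molar. The highest limb Smad4 peak (45233744 to 45233895, score 4.56) lay inside the gene, and 3 others lay 6231 to 13282 bp beyond its lower-coordinate end. The molar Smad4 list starts at a score of 4 on chromosome 19, and 4 of the 5 limb peaks score below that. With a common lowest score the Smad4 counts were 1 in limb and 0 in molar. The limb pSmad1/5 peaks at Lbx1 scored 3.0 and 3.74, and the single molar pSmad1/5 peak, 33742 bp away, scored 4.24.

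Met encodes the receptor for hepatocyte growth factor, by which precursors leave the somite, and spans 111 kb on chromosome 6 (17463349 to 17573980). Smad4 had 0 limb and 4 molar peaks there, in lists that both start at 3 on this chromosome. Of the 4 molar Smad4 peaks 3 lay inside the gene, at 17522323 to 17522372 (score 4.01), 17526381 to 17526433 (score 4.74) and 17542744 to 17542797 (score 4.10). These counts, 0 in limb and 4 in molar, also stood with a common lowest score and with equal numbers of peaks per chromosome. Their density was 0 times the chromosome average in limb (0 to 1.65) and 1.33 times in molar (0.363 to 3.41), and these intervals overlap. The only limb peak at Met was a pSmad1/5 peak at 17463513 to 17463561 (score 3.20), 419 bp upstream of the tabled start site and 189 bp inside the annotated gene. The 4 molar pSmad1/5 peaks all lay outside the gene with scores of 2.21 to 2.70, below the limb list's lowest score. Hgf, which encodes the ligand of Met, had no peak in any of the 4 lists.

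The determination genes Myf5 and Myf6 lie next to each other on chromosome 10 and had a single peak per tissue, for pSmad1/5 alone. Myf5 occupies 107482908 to 107486927 and Myf6 107492848 to 107494723. The limb peak (107485404 to 107485453, score 3.94) and the molar peak (107485960 to 107486009, score 3.91) both lay inside Myf5, 692 bp and 141 bp downstream of its start site. Their summits were 551 bp apart and the peaks did not overlap. The same peaks lie 7406 bp (limb) and 6855 bp (molar) from Myf6 and are the reason it counts as having a peak. Neither gene had a Smad4 peak in limb or molar within 50 kb, where 1.19 limb and 1.8 molar Smad4 peaks would lie around Myf5 at chromosome density. Within 100 kb there were 0 limb and 1 molar Smad4 peaks.

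Myod1, the third determination gene, had no peak inside it or within 10 kb in any list, yet many farther away. It lies on chromosome 7 (46376474 to 46379092), and the nearest summit, molar Smad4, was 10224 bp from it. For pSmad1/5 there were 6 limb peaks and 1 molar peak, and for Smad4 3 limb and 7 molar peaks. The limb pSmad1/5 density was 6.56 times the chromosome average (2.41 to 14.3) and that of molar pSmad1/5 1.2 times (0.0305 to 6.71). For Smad4 the ratios were 4.54 in limb (0.936 to 13.3) and 3.43 in molar (1.38 to 7.08). The all-gene ratios of molar pSmad1/5 (1.62) and limb Smad4 (1.92) lay inside these intervals. Those of limb pSmad1/5 (1.83) and molar Smad4 (1.29) lay below them. Such intervals cover counting error and not the spread between genes. At least as many limb pSmad1/5 peaks were present at 13.7% of all protein-coding genes, and at least as many molar Smad4 peaks at 7.86%. All 4 lists start at 3 on this chromosome, so the common lowest score left these counts as they were. The Smad4 lists differ in length there, with 936 limb and 2887 molar peaks. Relative to the chromosome average the Smad4 order was thus the other way round from the counts, with overlapping intervals. With equal numbers of peaks per chromosome Smad4 had 3 limb and 5 molar peaks, and pSmad1/5 6 limb and 1 molar.

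Of the 17 peaks in the Myod1 window, 9 lay inside the potassium channel gene Kcnc1 and 4 had Myod1 as their nearest protein-coding gene. Counting only those 4, limb had 1 and molar 0 pSmad1/5 peaks, and limb had 1 and molar 2 Smad4 peaks. The limb pSmad1/5 peak among them was broad for these lists, 217 bp (46348967 to 46349183, score 3.70), at 27376 bp on the lower-coordinate side. The limb Smad4 peak lay at 46346812 to 46346860 (score 4.68), 29636 bp away, and the molar Smad4 peaks at 25035 bp (score 4.52) and 10224 bp (score 4.89). Inside Kcnc1 a limb Smad4 peak (46411315 to 46411363) and a molar Smad4 peak (46411257 to 46411309) lay 5 bp apart without overlap.

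Myog, the factor that starts differentiation, had no limb peak within 10 kb, but 1 molar peak for each antibody. It lies on chromosome 1 (134290004 to 134292548), and its window held 20 peaks, of which 11 lay inside Ppfia4 and 6 had Myog as nearest gene. For pSmad1/5 it held 3 limb and 7 molar peaks, for Smad4 6 limb and 4 molar ones. Relative to the chromosome average the order for pSmad1/5 was the other way round, 7.49 times in limb (1.54 to 21.9) and 2.72 times in molar (1.09 to 5.6). Smad4 stood at 6.48 times in limb (2.38 to 14.1) and 2.26 times in molar (0.615 to 5.78). The all-gene ratios of limb pSmad1/5 (1.83), molar pSmad1/5 (1.62) and molar Smad4 (1.29) lay inside these intervals. That of limb Smad4 (1.92) lay below its interval, and at least as many limb Smad4 peaks were present at 21.1% of all protein-coding genes. With a common lowest score there were 3 limb and 2 molar pSmad1/5 peaks. With equal numbers of peaks per chromosome pSmad1/5 had 3 limb and 1 molar peaks and Smad4 6 limb and 1 molar. The highest scores belonged to neighbouring limb Smad4 peaks, 5.38 and 5.64, at 29.5 and 29.4 kb from Myog and nearer to Adora1. The limb summits nearest to the Myog start site lay 15718 bp upstream for pSmad1/5 and 27393 bp downstream for Smad4. The nearest molar summits lay 3020 bp upstream for pSmad1/5 (score 3.20) and 2046 bp upstream for Smad4 (score 3.07).

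Mef2c, the longest of the 10 genes at 163 kb on chromosome 13 (83504017 to 83667079), was the poorest in limb peaks for its size. For pSmad1/5 it had 0 limb and 4 molar peaks, for Smad4 1 limb and 4 molar. With a common lowest score 0 limb and 1 molar pSmad1/5 peaks were left. With equal numbers of peaks per chromosome pSmad1/5 had 0 limb and 3 molar peaks and Smad4 had 1 in each tissue. The highest molar pSmad1/5 peak (83462186 to 83462235) scored 5.61, the highest pSmad1/5 score at any of the 10 genes, and lay 41805 bp beyond the lower-coordinate end. A molar Smad4 peak stood 467 bp from it by summit and did not overlap. A further molar pSmad1/5 summit (score 2.80) lay 1844 bp upstream of the first tabled start site. The density was below the chromosome average in all 4 lists, from 0 in limb pSmad1/5 to 0.813 in molar Smad4. The Poisson intervals were 0 to 1.96 in limb and 0.207 to 1.95 in molar for pSmad1/5. For Smad4 they were 0.0112 to 2.46 in limb and 0.222 to 2.08 in molar. Each held both the chromosome average and the all-gene ratio of its list, so a lower density at Mef2c is not shown.

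Acta1, on chromosome 8 (123891758 to 123894775), had 3 pSmad1/5 peaks in limb and 4 in molar, and 5 Smad4 peaks in limb and none in molar. Of the 12 peaks 7 lay inside Ccsap or Nup133, among them 3 of the limb Smad4 peaks within 123859112 to 123859539. The limb peaks nearest to the gene were a Smad4 peak (score 3.80) at 4709 bp and pSmad1/5 peaks at 6612 bp (score 4.08) and 8337 bp (score 3.22), all beyond the lower-coordinate end, which is the end of transcription. A molar pSmad1/5 peak (score 3.22) lay 235 bp beyond the same end. As at Lbx1, the molar Smad4 list starts at 4 on this chromosome. With a common lowest score the Smad4 counts were 2 in limb and 0 in molar.

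**Figure D4:**
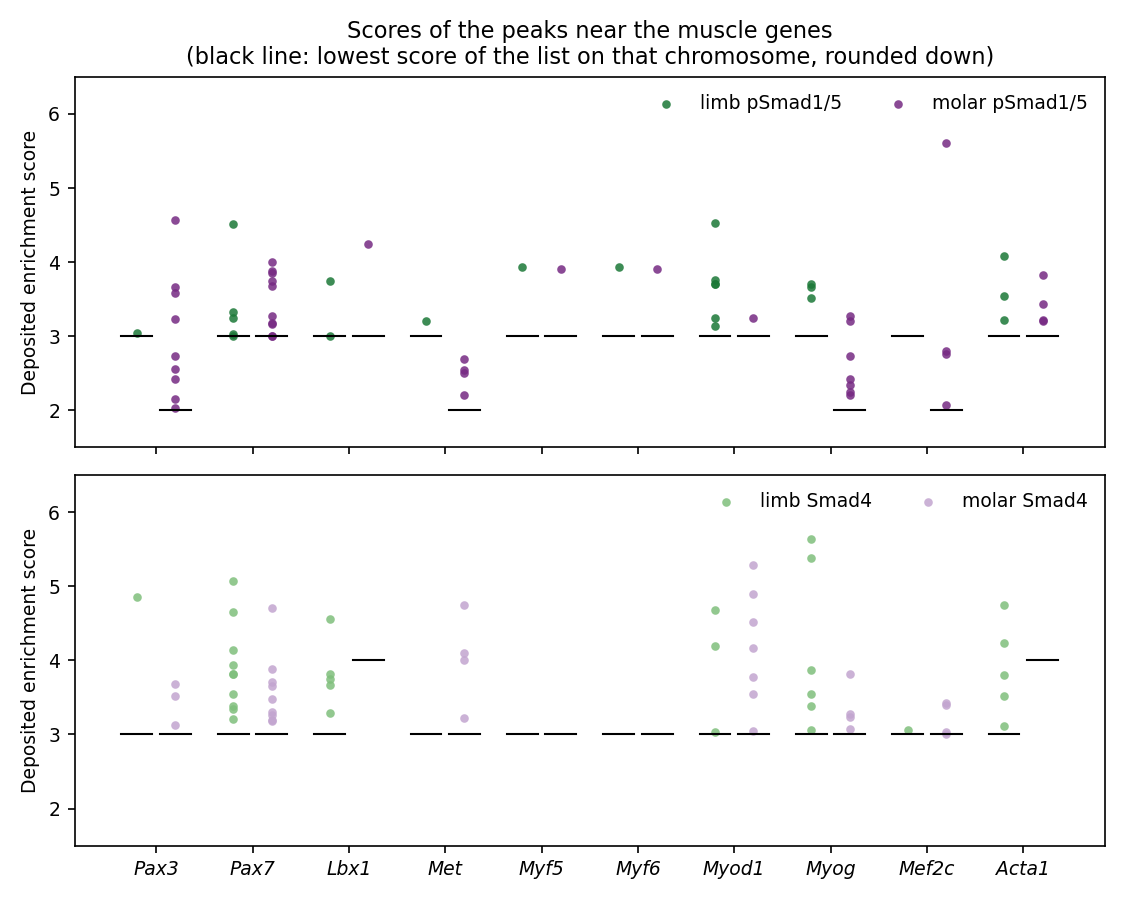
Deposited enrichment score (vertical axis) of every assigned peak (points) per gene (horizontal axis), pSmad1/5 in the upper and Smad4 in the lower panel, limb left of molar; black lines give the lowest score of that list on the gene's chromosome, rounded down. Most peaks sit within 1 unit of their line, and the highest score, 5.64, is a limb Smad4 peak at Myog.

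Peaks at the muscle genes had median scores slightly above those of their lists. Median scores were 3.52 for limb pSmad1/5 (3.44 over the whole list), 3.18 for molar pSmad1/5 (3.0), 3.81 for limb Smad4 (3.53) and 3.52 for molar Smad4 (3.38). A score of at least 4 was reached by 3 limb and 4 molar pSmad1/5 peaks and by 11 limb and 8 molar Smad4 peaks. For pSmad1/5 these were 13.6% in limb (20.4% of the whole list) and 9.76% in molar (9.96%). For Smad4 they were 35.5% in limb (25.6%) and 25.8% in molar (20.9%). The whole lists reached scores of 28.85 (limb) and 13.78 (molar) for pSmad1/5, and 28.69 and 13.97 for Smad4. No peak at the 10 genes scored above 5.64. With that minimum, 3 of the 10 genes had a limb pSmad1/5 peak (34.3% of all protein-coding genes) and 4 a molar pSmad1/5 peak (27.8%). For Smad4 there were 6 in limb (43.4%) and 3 in molar (39.0%). The 3 genes with such a limb pSmad1/5 peak were Pax7, Myod1 and Acta1, and Met, Myf5, Myf6 and Mef2c had none in either limb list.

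Sites with peaks of more than 1 list were few. Of the 125 peaks 4 overlapped a peak of another list by at least 1 bp, forming the pair at Pax3 (limb Smad4 and molar pSmad1/5) and the pair in Pax7 (molar pSmad1/5 and molar Smad4). None of the 22 limb pSmad1/5 peaks overlapped a limb Smad4 peak, where 4.85% of the whole list do, and none overlapped a molar pSmad1/5 peak, against 1.70%. None of the 31 limb Smad4 peaks overlapped a molar Smad4 peak, against 0.518%. The pair at Pax3 holds 1 of 31 limb Smad4 peaks (2.29% of that list overlap molar pSmad1/5), and the pair in Pax7 1 of 41 molar pSmad1/5 peaks (0.589% overlap molar Smad4). With summits within 250 bp in place of overlap, 1 limb pSmad1/5 peak had a molar pSmad1/5 partner (4.46% of the list), in Ppfia4 at 30.4 kb from Myog. With the same allowance 1 limb Smad4 peak had a molar Smad4 partner (1.69%), in Kcnc1 near Myod1. Limb Smad4 and molar pSmad1/5 summits lay within 250 bp at 2 limb Smad4 peaks (5.60%), at Pax3 and in Ppfia4, and molar pSmad1/5 and molar Smad4 summits at 1 molar pSmad1/5 peak (1.74%), in Pax7. No limb pSmad1/5 summit lay so close to a limb Smad4 summit (9.92%). The nearest came at Acta1, 310 bp apart, in Ccsap.

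Most peaks assigned to these genes were far from gene ends. Of the 125, 43 lay inside the 10 genes, 30 inside other protein-coding genes and 52 outside protein-coding genes, and 9 had the summit within 1 kb of an end of one of the 10. Within 1 kb of an end of any protein-coding gene lay 2 of 22 limb pSmad1/5 peaks (14.8% of the list) and 9 of 41 molar pSmad1/5 peaks (14.4%). For Smad4 there were 3 of 31 in limb (18.0%) and 1 of 31 in molar (4.83%). Inside protein-coding genes lay 13 of 22 limb (61.6%) and 22 of 41 molar (55.1%) pSmad1/5 peaks, and 22 of 31 limb (64.5%) and 16 of 31 molar (50.2%) Smad4 peaks.

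**Figure D5:**
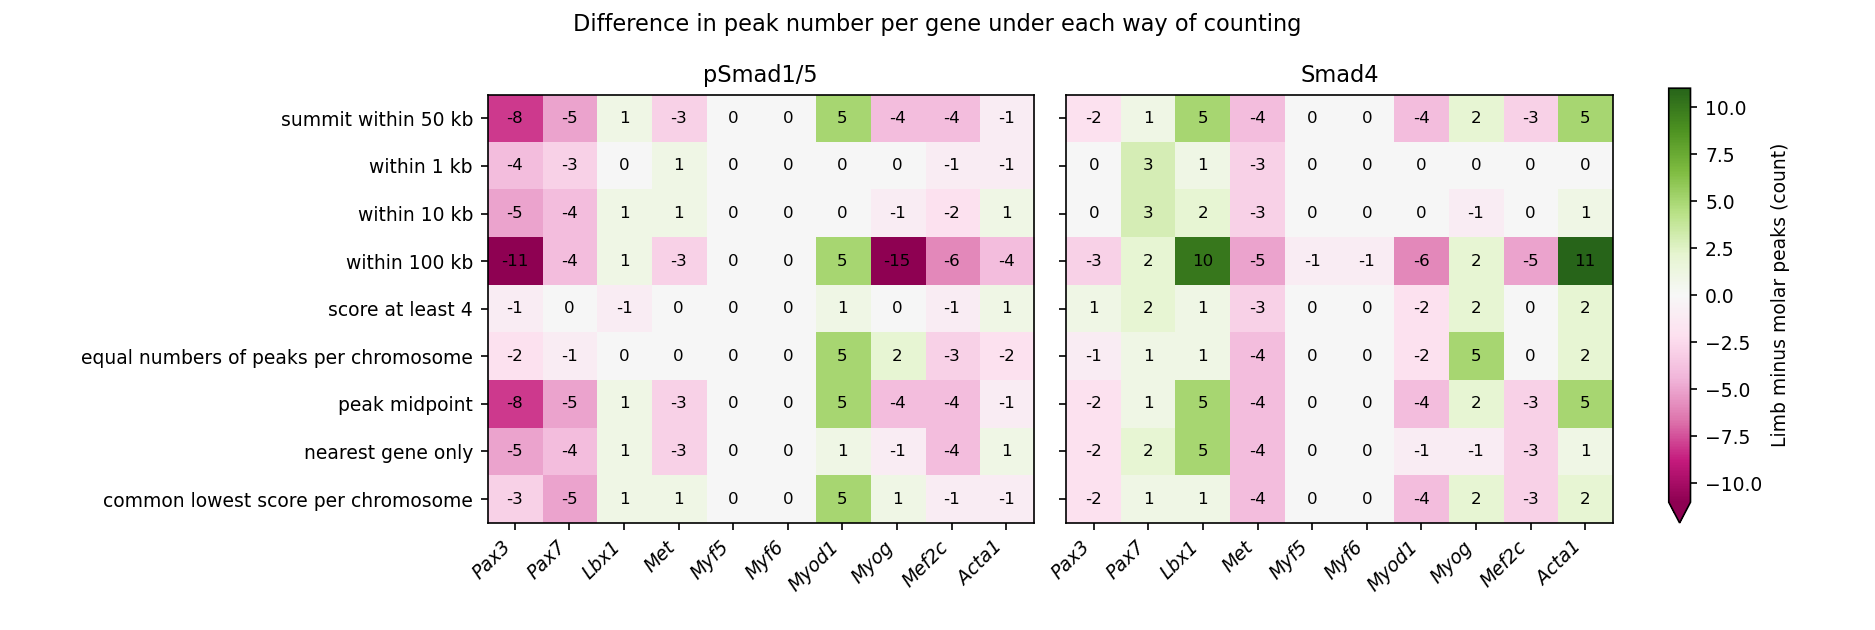
Limb minus molar number of peaks per gene (columns; value and colour, count) for pSmad1/5 (left) and Smad4 (right) under 9 ways of counting (lines of the grid). For Smad4 the difference at Met is negative in all 9 (-5 to -3) and those at Pax7 (1 to 3) and Lbx1 (1 to 10) positive in all 9. For pSmad1/5 those at Pax3 (-11 to -1) and Mef2c (-6 to -1) are negative in all 9. The 9 ways recount the same peaks of 1 library per group, so their agreement is no replicate check.

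Other genes of the muscle programme and of accompanying tissues were counted from 5 lists of 78 genes in all. Of 20 myogenic regulators, 13 had a limb and 18 a molar pSmad1/5 peak, and 18 a limb and 19 a molar Smad4 peak. Of 12 genes of precursor migration, 9 had a limb and 11 a molar pSmad1/5 peak, and 10 a limb and 10 a molar Smad4 peak. Among 24 genes of fusion and contraction, 21 had a limb and 19 a molar pSmad1/5 peak, and 22 a limb and 18 a molar Smad4 peak. Of 12 tendon and muscle connective tissue genes, 12 had a limb and 9 a molar pSmad1/5 peak, and 10 a limb and 12 a molar Smad4 peak. Of 10 nerve and Schwann cell genes, 8 had a limb and 9 a molar pSmad1/5 peak, and 9 a limb and 7 a molar Smad4 peak. Over all 78 genes the shares were 80.8% for limb and 84.6% for molar pSmad1/5, and 88.5% for limb and 84.6% for molar Smad4, above the 68.0% to 74.9% of all protein-coding genes in each list. These shares were not matched for gene length or local gene density.

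Of the 78 genes, 3 had peaks of both antibodies in limb and none in molar (1.81% of all protein-coding genes), and 3 had both in molar and none in limb (3.72%). Among the 10 muscle genes there were 0 of either kind. Those in limb alone included Actc1, a cardiac actin gene also used in embryonic muscle, with 2 pSmad1/5 and 1 Smad4 peaks, and Neb, which encodes a thin-filament protein, with 1 and 2. In molar alone they were Meox2, a homeobox gene of limb muscle development, with 2 pSmad1/5 and 2 Smad4 peaks, Cxcr4, a chemokine receptor of migrating precursors, with 4 and 1, and Isl1, a LIM homeobox gene of motor neurons, with 2 and 1. On chromosome 2, which carries Actc1 and Neb, the molar Smad4 list starts at a score of 4. On the chromosomes of Meox2, Cxcr4 and Isl1 (12, 1 and 13) molar pSmad1/5 peaks are listed from a score of 2.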

How the data were processed

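Peaks were called by the authors with BCP in its transcription factor mode, 1 list per library, per the labels. The submitters' processing notes name Bowtie2, SAMtools, bedtools, deepTools and bcl2fastq without roles and the build mm10. Whether the 2 input samples, not used here, served as controls was not given in the sources used. Columns deposited for every peak are its position, summit, enrichment score and p-value. The deposited score only ranks or filters peaks, and the deposited p-value was used for no test. Without read counts, depth is unknown, and list length is no amount of binding.

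Gene ends came from RefSeq GRCm38.p6, whose primary chromosomes share mm10 coordinates. That table has no strand, exons or untranslated regions, and strand and start sites were taken from the RefSeq promoter table, which held 6 of the 10 genes. Average density was peaks over the span to the last gene or peak of the chromosome. An overlap of 1 bp or more made a shared site. Exact 95% Poisson intervals cover counting error only. Alternatives were other distances, a minimum score of 4, equal numbers of top peaks per chromosome, midpoints, the nearest gene only, and, added after the data were seen, a common lowest score per chromosome. The 10 genes and the 5 lists were chosen with earlier results of these data known. Named genes were the 10, those of the 5 lists with peaks of both antibodies in 1 tissue (at most 3 per list and tissue), and the gene most like the one with most peaks. One gene that this rule names is not reported here. Hgf and neighbouring genes were named after their values were seen. Counting was tested on simulated data. Scripts ran under Python 3.11.15 with scipy 1.17.1, pandas 2.3.3 and numpy 2.4.6, and matplotlib 3.10.9 drew the figures.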

Additional observations from a re-analysis of the deposited data

Results flagged for a closer look

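At 4 of the 10 genes the limb minus molar difference in peak number had opposite signs for the antibodies, as at 24.9% of all protein-coding genes. With 1 library per group these differences were not tested, and the limb and molar counting intervals overlapped. Myod1 had 5 more limb than molar pSmad1/5 peaks and a Smad4 difference of -4, values 9 apart. Its chromosome held 936 limb and 2887 molar Smad4 peaks. At Pax7 the pSmad1/5 difference was -5 and the Smad4 difference 1, which gives -6. Myog also gave -6, from -4 for pSmad1/5 and 2 for Smad4. The opposite signs at Myog did not hold with a common lowest score (1 for pSmad1/5 and 2 for Smad4). Nor did they hold with equal numbers of peaks per chromosome (2 and 5). Acta1 gave -6 as well, from -1 for pSmad1/5 and 5 for Smad4, where the molar Smad4 list starts at a score of 4 on its chromosome.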

How the results depend on the processing

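The number of the 10 genes with a peak stayed within 1.5 times its value at 10 kb and 100 kb, with peak midpoints, with the nearest gene only, with equal numbers of peaks per chromosome and with a common lowest score. Within 1 kb it was 4 in limb and 5 in molar for pSmad1/5 and 4 in limb for Smad4. At a minimum score of 4 it was 3 and 4 for limb and molar pSmad1/5 and 3 for molar Smad4. The number of peaks (22 limb and 41 molar for pSmad1/5, 31 and 31 for Smad4) became 10 and 19 for pSmad1/5 and 14 and 12 for Smad4 within 10 kb. Within 100 kb it became 67 for molar pSmad1/5 and 54 limb and 49 molar for Smad4. At a minimum score of 4 it was 3 and 4 for pSmad1/5 and 11 and 8 for Smad4. Molar pSmad1/5 had 21 peaks with equal numbers per chromosome and 24 with a common lowest score, and limb Smad4 19 with the nearest gene only.

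The limb minus molar difference in peaks was -19 for pSmad1/5 and 0 for Smad4. It was -9 and 2 within 10 kb, -37 and 5 within 100 kb, -1 and 3 at a minimum score of 4, and -1 and 2 with equal numbers per chromosome. With a common lowest score it was -2 and -7, and for Smad4 -3 with the nearest gene only. These sums hide genes that went both ways: with a common lowest score the pSmad1/5 difference was -5 at Pax7, -3 at Pax3 and 5 at Myod1. The difference at single genes turned its sign for pSmad1/5 under at least 1 way of counting at Lbx1, Met, Myog and Acta1, and for Smad4 at Pax3 and Myog.

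Peaks overlapping another list numbered 0 and 2 for limb and molar pSmad1/5 and 1 and 1 for Smad4. With summits within 250 bp they numbered 1 and 5 for pSmad1/5 and 3 and 2 for Smad4, and at a minimum score of 4 they were 0 in all 4 lists. Of the 78 listed genes, 63 limb and 66 molar for pSmad1/5 and 66 molar for Smad4 became 35, 27 and 42 at a minimum score of 4. Among all protein-coding genes the shares fell from 68.0%, 74.9% and 68.0% to 34.3%, 27.8% and 39.0% in the same 3 lists. No paired analysis was possible because each group has 1 library. A list without a peak at a gene does not show that the protein is absent there, since depth is unknown and the lists start at different scores.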
